A study of Homo sapiens with 5 samples.

Results

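The enrichment peaks of Nrf2 and of HIF1α in arsenic-treated BEAS-2B cells were compared with each other, interval against interval. All intervals listed for the arsenic libraries of the 2 antibodies entered the comparison, which gave 7743 Nrf2 peaks and 12826 HIF1α peaks, 20569 of the 29781 intervals in the 4 lists of single libraries (69.1%). Regions that the submitters had merged over the libraries were left out. BEAS-2B is an immortalized line of human bronchial epithelial cells. The cells were starved of serum overnight and then kept for 6 h with 1 μM inorganic arsenic (iAs), and the control cells received the same starvation without iAs. Both treated libraries thus shared the cell line, the starvation, the dose and the time, and differed in the antibody, which the labels give as a Santa Cruz product for Nrf2 and an Abcam product for HIF1α, while the methods of the study name another supplier. Each antibody and condition had 1 library, so no difference could be set against the spread between replicates, and no p-value is given. Shares are given with 95% Wilson intervals and differences between shares with 95% Newcombe intervals, which cover counting error only. The intervals carry no height, score or read count, so the depth of the libraries is unknown, and the lists hold no expression values against which the cell type could be checked.

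Nrf2 is a basic leucine zipper transcription factor that binds the antioxidant response element (ARE) as a dimer with a small Maf protein, and its inhibitor Keap1 marks it for degradation until oxidants or electrophiles such as arsenite modify Keap1. The ARE resembles the site of the AP-1 family, the dimers of Jun and Fos proteins, and holds that site when its variable bases read TCA. HIF1α pairs with ARNT and binds the hypoxia response element (HRE). With oxygen present it is hydroxylated on prolines by the EGLN enzymes and degraded through VHL. Nrf2 is best known for genes of glutathione, thioredoxin and NADPH metabolism, and HIF1α for genes of glycolysis, glucose uptake and blood vessel growth.

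The sets of sequences show the DNA letters behind the classes of regions described here, taken from the GRCh37 (hg19) genome and written on the strand that carries the motif. The first set comes from regions where the peaks of both factors overlapped at known Nrf2 targets, and its capitals mark the ARE core TGACNNNGC nearest to the centre of the widest Nrf2 peak. TXNRD1, thioredoxin reductase, holds it at chr12:104680698-104680726 on the minus strand, in a 5′-untranslated exon of some of its transcripts. SQSTM1, the autophagy receptor p62 that binds Keap1, holds it at chr5:179246555-179246623 on the minus strand, in an intron of some of its transcripts and upstream of the others. The site of NQO1, a quinone reductase, is at chr16:69760880-69760948 on the minus strand, upstream of the gene and in an exon of the divergent transcript NQO1-DT. That of ME1, the malic enzyme that makes NADPH, is at chr6:84140869-84140937 on the minus strand, upstream of the start site.
TXNRD1: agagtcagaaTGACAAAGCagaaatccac
SQSTM1: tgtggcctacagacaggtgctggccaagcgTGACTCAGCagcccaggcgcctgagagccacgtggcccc
NQO1: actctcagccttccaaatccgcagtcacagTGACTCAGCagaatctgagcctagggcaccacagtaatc
ME1: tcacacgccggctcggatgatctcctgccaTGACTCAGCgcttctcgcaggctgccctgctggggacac
In SQSTM1 the core lay inside a HIF1α peak as well. In TXNRD1, NQO1 and ME1 it lay in the Nrf2 peak and outside the HIF1α interval that overlapped that peak.

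The second set comes from overlapping peaks at genes known as HIF1 targets, again with the ARE core in capitals, and shows that such a core was present there too. ENO1, the glycolytic enolase, carries it at chr1:8940219-8940287 on the plus strand, upstream of the gene. GAPDH, which follows aldolase in glycolysis, carries it at chr12:6644312-6644380 on the minus strand, in an intron of some transcripts. SLC2A1, the glucose transporter GLUT1, carries it at chr1:43407567-43407635 on the plus strand, in an intron. ALDOA, aldolase A, carries it at chr16:30077408-30077476 on the minus strand, in an intron.
ENO1: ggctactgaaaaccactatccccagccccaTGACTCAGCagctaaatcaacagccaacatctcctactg
GAPDH: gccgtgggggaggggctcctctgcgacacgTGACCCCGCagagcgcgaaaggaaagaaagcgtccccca
SLC2A1: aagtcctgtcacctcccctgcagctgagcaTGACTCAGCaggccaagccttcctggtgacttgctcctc
ALDOA: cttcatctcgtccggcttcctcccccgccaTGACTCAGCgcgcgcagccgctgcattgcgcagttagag
In GAPDH and ALDOA the core lay inside the HIF1α peak too, and in ENO1 and SLC2A1 it lay outside. Of the 8 cores in these first sets, 6 read TGACTCAGC, which includes the AP-1 site TGACTCA, and those of TXNRD1 and GAPDH had other letters at the variable positions.

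The third set comes from Nrf2 targets with Nrf2 peaks only, with the ARE core in capitals. ABCC2, an export pump for conjugated compounds, holds it at chr10:101543896-101543964 on the plus strand, in an intron. AKR1C3, an aldo-keto reductase, holds it at chr10:5114070-5114138 on the minus strand, in an intron of some transcripts.
ABCC2: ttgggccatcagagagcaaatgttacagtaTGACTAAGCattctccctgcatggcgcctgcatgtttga
AKR1C3: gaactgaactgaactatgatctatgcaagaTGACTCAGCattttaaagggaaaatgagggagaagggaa
The fourth set comes from HIF1 targets with HIF1α peaks only, and its capitals mark the HRE core ACGTG. ANKRD37, an ankyrin repeat protein, carries it at chr4:186317582-186317646 on the plus strand, in an intron of some transcripts. HK2, hexokinase 2, carries it at chr2:75061899-75061963 on the minus strand, in an intron of some transcripts.
ANKRD37: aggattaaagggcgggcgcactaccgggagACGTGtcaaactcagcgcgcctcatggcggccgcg
HK2: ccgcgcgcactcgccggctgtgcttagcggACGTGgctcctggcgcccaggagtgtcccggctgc
Both HRE cores lie in stretches rich in G, C and CpG, unlike the ABCC2 and AKR1C3 stretches.

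The question behind the comparison is how far the 2 factors occupied the same places in iAs-treated cells. Of the Nrf2 peaks, 1136 shared at least 1 bp with a HIF1α peak (14.7%, 13.9 to 15.5%). Of the HIF1α peaks, 1148 shared at least 1 bp with an Nrf2 peak (8.95%, 8.47 to 9.46%). Most peaks of either factor thus had no counterpart in the other list. Once overlapping intervals were joined, the treated cells held 19392 regions, of which 1107 had both factors (5.71%), 6607 had Nrf2 only (34.1%) and 11678 had HIF1α only (60.2%). A region with both is called shared here. With a stricter rule, an overlap of at least 50% of both intervals, the shares fell to 6.66% of Nrf2 and 4.02% of HIF1α peaks and the regions with both to 516, and with only the wider 50% of each list the shares were 9.61% and 5.77%.

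The same comparison between the lists of control cells gave higher shares. There, 888 of 3204 Nrf2 peaks overlapped a HIF1α peak (27.7%), and 892 of 6008 HIF1α peaks overlapped an Nrf2 peak (14.8%). The share of Nrf2 peaks with HIF1α was 13.0 percentage points lower with iAs (a difference of -13.0, interval -14.8 to -11.3), and the share of HIF1α peaks with Nrf2 was 5.90 points lower (-5.90, -6.94 to -4.88). More Nrf2 peaks overlapped HIF1α with iAs than without, 1136 against 888, but the lists themselves were longer still with iAs, at 7743 against 3204 Nrf2 peaks and 12826 against 6008 HIF1α peaks.

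Where the factors met, they usually met as a pair of single peaks. Of the shared regions, 1048 held 1 peak of each factor (94.7%). In 32 regions 1 Nrf2 peak covered several HIF1α peaks, in 22 regions 1 HIF1α peak covered several Nrf2 peaks, and 5 regions held more than 1 peak of both. Over all 1177 overlapping pairs the median overlap was 248 bp, with quartiles at 190 and 340 bp, and the median overlap was 100% of the narrower peak, so the narrower interval commonly lay inside the wider one. The centres of the paired intervals were a median of 112 bp apart (quartiles 50 and 225 bp). They were at most 100 bp apart in 533 pairs (45.3%) and at most 500 bp apart in 1123 (95.4%). An interval's centre is its midpoint, as the lists give no summit.

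Position set the classes of regions far apart. Within 1 kb of the start site (TSS) of a protein-coding transcript lay 708 of the shared regions (64.0%, 61.1 to 66.7%), 373 of the Nrf2-only regions (5.65%, 5.11 to 6.23%) and 9285 of the HIF1α-only regions (79.5%, 78.8 to 80.2%). The shared regions exceeded the Nrf2-only regions by 58.3 percentage points (55.4 to 61.1) and fell short of the HIF1α-only regions by 15.6 points (a difference of -15.6, interval -18.5 to -12.7). The median distance to the nearest TSS was 347 bp for shared regions, 38292 bp for Nrf2 only and 248.5 bp for HIF1α only. In distance the shared regions were thus nearer to the HIF1α-only than to the Nrf2-only regions. Under the rule of at least 50% of both intervals, 10.7% of the Nrf2-only regions lay within 1 kb.

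**Figure D1:**
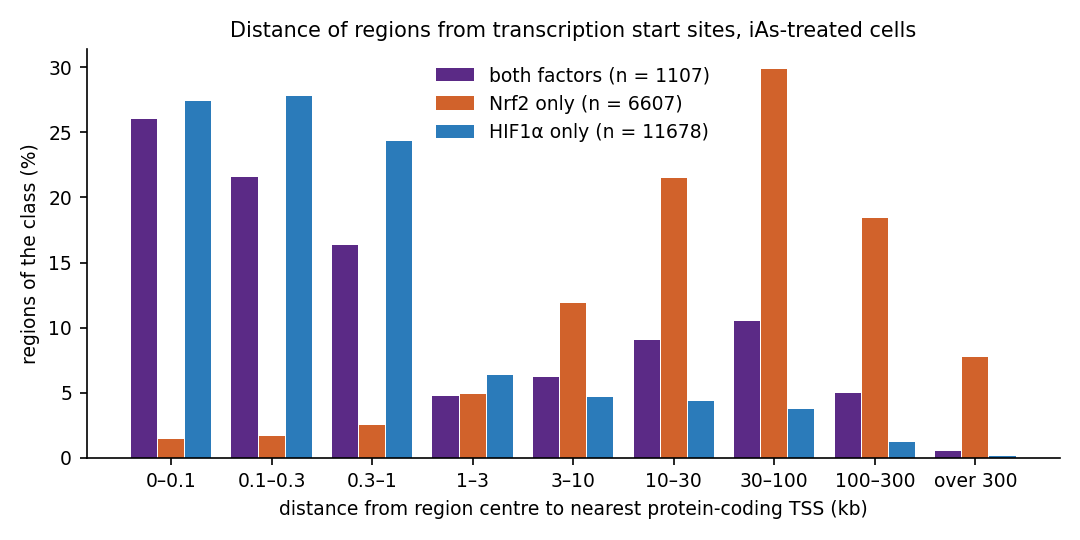
Share of the regions of each class (vertical axis, %) by the distance of the region's centre from the nearest protein-coding TSS (horizontal axis, kb), for regions with both factors, Nrf2 only and HIF1α only in iAs-treated cells. Shared and HIF1α-only regions are most frequent within 1 kb, and Nrf2-only regions between 30 and 100 kb.

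The far tail of the shared regions was fuller than that of the HIF1α-only regions. More than 10 kb from any TSS lay 25% of the shared, 77.6% of the Nrf2-only and 9.47% of the HIF1α-only regions. More than 100 kb away lay 5.51%, 26.2% and 1.35%, in the same order. Distal intergenic sequence held 19.9% of the shared, 48.2% of the Nrf2-only and 8.97% of the HIF1α-only regions, while introns held 23.9%, 42.9% and 22.3%. Shared regions near a TSS had start sites on both strands within 1 kb in 111 of 708 (15.7%, 13.2 to 18.5%), against 34 of 373 Nrf2-only (9.12%, 6.60 to 12.5%) and 984 of 9285 HIF1α-only regions (10.6%, 9.99 to 11.2%).

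Read from each factor's own list, position had opposite relations to sharing. An Nrf2 peak within 1 kb of a TSS overlapped a HIF1α peak in 723 of 1096 cases (66.0%, 63.1 to 68.7%), and an Nrf2 peak farther away in 413 of 6647 (6.21%, 5.66 to 6.82%). The difference was 59.8 percentage points (56.8 to 62.6). A HIF1α peak within 1 kb overlapped an Nrf2 peak in 731 of 10016 cases (7.30%, 6.81 to 7.82%), and one farther away in 417 of 2810 (14.8%, 13.6 to 16.2%), a difference of -7.54 points (-8.99 to -6.17). An Nrf2 peak near a TSS thus mostly met HIF1α, whereas a HIF1α peak near a TSS mostly lay without Nrf2.

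Near the TSS the 2 factors were placed slightly differently. The median signed position of the centre, with downstream positive, was 2 bp for shared and -39 bp for unshared Nrf2 peaks, and 22 bp for shared and 75 bp for unshared HIF1α peaks. The centre lay downstream of the TSS in 50.9% of shared Nrf2 peaks (47.3 to 54.5%), in 57.5% of shared HIF1α peaks (53.8 to 61.0%) and in 65.1% of unshared HIF1α peaks (64.2 to 66.1%). Within the same region, in 662 pairs of single peaks, the HIF1α centre was nearer to the TSS in 391 (59.1%, 55.3 to 62.7%). HIF1α was thus the more TSS-centred of the pair, in a modest majority of regions.

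Peaks of 1 factor alone were mostly far from the other factor. The median distance from an Nrf2-only peak to the nearest HIF1α peak was 67376 bp, and from a HIF1α-only peak to the nearest Nrf2 peak 94740 bp. Within 1 kb of an Nrf2-only peak a HIF1α peak was present in 286 cases (4.33%), and within 10 kb in 1029 (15.6%). Within 1 kb of a HIF1α-only peak an Nrf2 peak was present in 408 cases (3.49%), and within 10 kb in 1346 (11.5%). Near misses were therefore a small part of the peaks counted as unshared.

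Widths moved with sharing, most of all for HIF1α near start sites. The median width was 362 bp for shared and 329 bp for unshared Nrf2 peaks, and 425.5 bp for shared and 335 bp for unshared HIF1α peaks. Near start sites, within 1 kb, the HIF1α medians were 519 and 352 bp, and beyond 1 kb they were 307 and 281 bp. For Nrf2 the larger gap was beyond 1 kb, with 405 bp for shared and 330 bp for unshared peaks. The narrowest intervals in the lists were 181 bp for Nrf2 and 188 bp for HIF1α.

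Sharing rose along the width of the HIF1α peaks near start sites. When these were sorted by width into 10 classes of equal size, the share that overlapped Nrf2 went from 2.80% in the narrowest class to 17.7% in the widest. For HIF1α peaks beyond 1 kb it was 12.1% in the narrowest and 17.8% in the widest class. For Nrf2 peaks it was 65.1% and 71.8% within 1 kb, and 6.17% and 10.7% beyond it. A wider interval has more bases with which to overlap another, and how much of the trend follows from that was not tested.

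**Figure D2:**
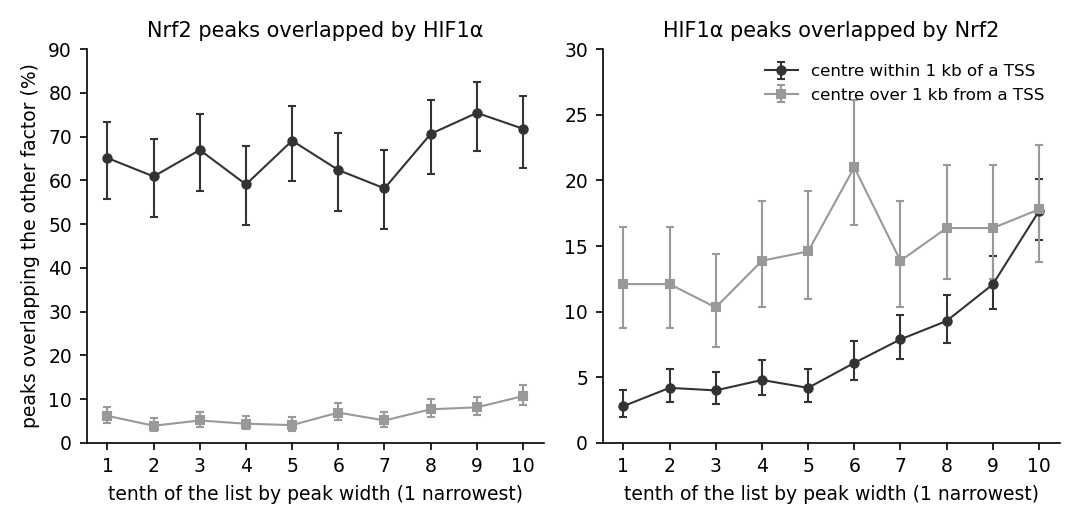
Share of peaks that overlap a peak of the other factor (vertical axes, %, with different ranges) in 10 classes of equal size of each factor's list by interval width (horizontal axes, 1 narrowest), for peaks within 1 kb of a TSS and beyond; bars are 95% Wilson intervals. The share of TSS-proximal HIF1α peaks goes from 2.80% to 17.7%, while TSS-proximal Nrf2 peaks lie between 58.2% and 75.5% in every class.

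Which factor had the wider peak depended on the place. In the 1048 regions with 1 peak of each, the Nrf2 peak was wider in 455 (43.4%, 40.4 to 46.4%). It was wider near a TSS, within 1 kb, in 213 of 662 (32.2%, 28.7 to 35.8%), and beyond 1 kb in 242 of 386 (62.7%, 57.8 to 67.4%). These confidence intervals do not overlap, so the difference between start sites and distal sites was larger than counting error.

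The short motifs in the middle of the peaks set the classes apart as clearly as position did. Each was searched on both strands within 100 bp of the peak's centre, and again in the window moved by 5 kb, whose share is given after "moved". The motifs were the AP-1 site TGACTCA, the ARE core TGACNNNGC, the sequence TGACTCAGC that contains the one and matches the other, the HRE core as ACGTG or GCGTG, and the GC box GGGCGG, which Sp1-type factors bind. A match is a run of letters and not a bound site. Because base composition differs between promoters and distal sequence, windows are described separately within and beyond 1 kb of a TSS.

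The AP-1 site was frequent in the Nrf2 peaks away from start sites. Beyond 1 kb it lay in 43.4% of the Nrf2-only windows (moved 3.72%), in 27.4% of the shared Nrf2 windows (moved 4.60%), in 25.2% of the shared HIF1α windows (moved 3.6%) and in 3.01% of the HIF1α-only windows (moved 3.84%). Of all windows of this length, 3.07% in the genome and 2.13% centred on a TSS held it. Distal HIF1α peaks that overlapped Nrf2 thus held the AP-1 site more often than those that did not, by 22.2 percentage points (18.2 to 26.6). The shared Nrf2 peaks held it less often than the Nrf2-only peaks, by 16 points (a difference of -16, interval -20.3 to -11.4). The AP-1 share of shared peaks was thus lower than that of unshared peaks for Nrf2 and higher for HIF1α. The level depended on the window, and over all positions TGACTCA lay in 42.3% of Nrf2-only windows, in 27.2% with 50 bp on each side and in 55.6% of whole intervals.

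The same order held within 1 kb of a TSS, at lower levels. There the site lay in 23.9% of Nrf2-only, 8.58% of shared Nrf2, 4.24% of shared HIF1α and 1.07% of HIF1α-only windows. The last value was under the 2.82% of the moved windows. The longer TGACTCAGC lay in 17.7% of distal Nrf2-only windows (moved 0.209%), in 7.75% of distal shared Nrf2 windows and in 0.501% of distal HIF1α-only windows, against 0.222% of genome windows and 0.251% of TSS windows. The ARE core lay in 33.8% of distal Nrf2-only, 21.1% of shared Nrf2, 18.0% of shared HIF1α and 10.5% of HIF1α-only windows, with 5.84% in genome windows. Within 1 kb the ARE core shares were 29.0%, 20.6%, 15.0% and 9.25%, against 10% of TSS windows, so the HIF1α-only peaks near start sites were at the level of start sites in general.

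Of the HRE cores, only GCGTG beyond 1 kb differed between shared and unshared HIF1α peaks by more than counting error. Beyond 1 kb, ACGTG lay in 22.5% of shared and 20.6% of HIF1α-only windows, a difference of 1.90 points (-2.21 to 6.43). Within 1 kb it lay in 19.6% and 19.1%, a difference of 0.413 points (-2.42 to 3.55). Differences of up to 6.43 and 3.55 points are within these intervals. It did separate the Nrf2 peaks, since distal shared Nrf2 windows held it in 21.3% and Nrf2-only windows in 10.4%, a difference of 10.9 points (7.11 to 15.1). Genome windows held it in 7.77% and TSS windows in 15.9%. GCGTG was less frequent in distal shared HIF1α windows (34.5%) than in HIF1α-only windows (41.8%), by 7.26 points (-7.26, -12.1 to -2.18), and TSS windows held it in 33.9%. Within 1 kb GCGTG lay in 38.2% of shared and 41.7% of HIF1α-only windows, a difference of -3.57 points (-7.16 to 0.145).

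The GC box and the base composition followed HIF1α. GGGCGG lay in 49.9% of distal HIF1α-only windows (moved 9.53%), in 35.0% of shared HIF1α, in 28.8% of shared Nrf2 and in 4.19% of Nrf2-only windows (moved 3.63%), against 2.9% of genome windows. Within 1 kb it lay in 58.1%, 56.5%, 46.9% and 20.6%, in the same order, against 54.1% of TSS windows. The GC content of the distal windows was 68.5% for HIF1α only, 62.0% for shared HIF1α, 59.5% for shared Nrf2 and 45.9% for Nrf2 only. The distal HIF1α-only windows held a median of 18 CpG, the shared windows of both factors a median of 8, and the Nrf2-only windows a median of 2. The shared distal peaks thus lay between the 2 one-factor classes in GC box, GC content, CpG and AP-1 site alike. Distal here means beyond 1 kb of a TSS, so sequence at 1 to 3 kb is included. At 1 to 3 kb lay 743 HIF1α-only, 53 shared and 324 Nrf2-only regions, against 1106, 277 and 5125 at more than 10 kb. The distal classes thus still differed in nearness to a TSS, and the part of this in these orders was not tested. Motif shares move with base composition, and how far the one follows from the other was not tested.

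The other motifs searched are sites of factors that act at many promoters. They were the E-box CACGTG, which contains ACGTG, the cAMP response element TGACGTCA, the ETS site CCGGAAG, the NRF1 site GCGCATGC, the YY1 site AAGATGG and the CCAAT box. Near start sites CCGGAAG lay in 10.7% of shared and 9.60% of HIF1α-only windows and in 8.30% of shared and 4.56% of Nrf2-only windows, against 11.3% of TSS windows. CCAAT lay in 12% of both shared and HIF1α-only windows of HIF1α, fewer than the 25.2% of TSS windows. CACGTG lay in 5.20% of shared and 5.64% of HIF1α-only windows (5.65% of TSS windows), TGACGTCA in 1.5% and 1.11% (2.03%), GCGCATGC in 1.37% and 1.49% (2.96%), and AAGATGG in 4.51% and 3.69% (5.34%). Shared and HIF1α-only peaks near start sites were thus close to each other in all 6, and at or below the level of start sites in general.

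**Figure D3:**
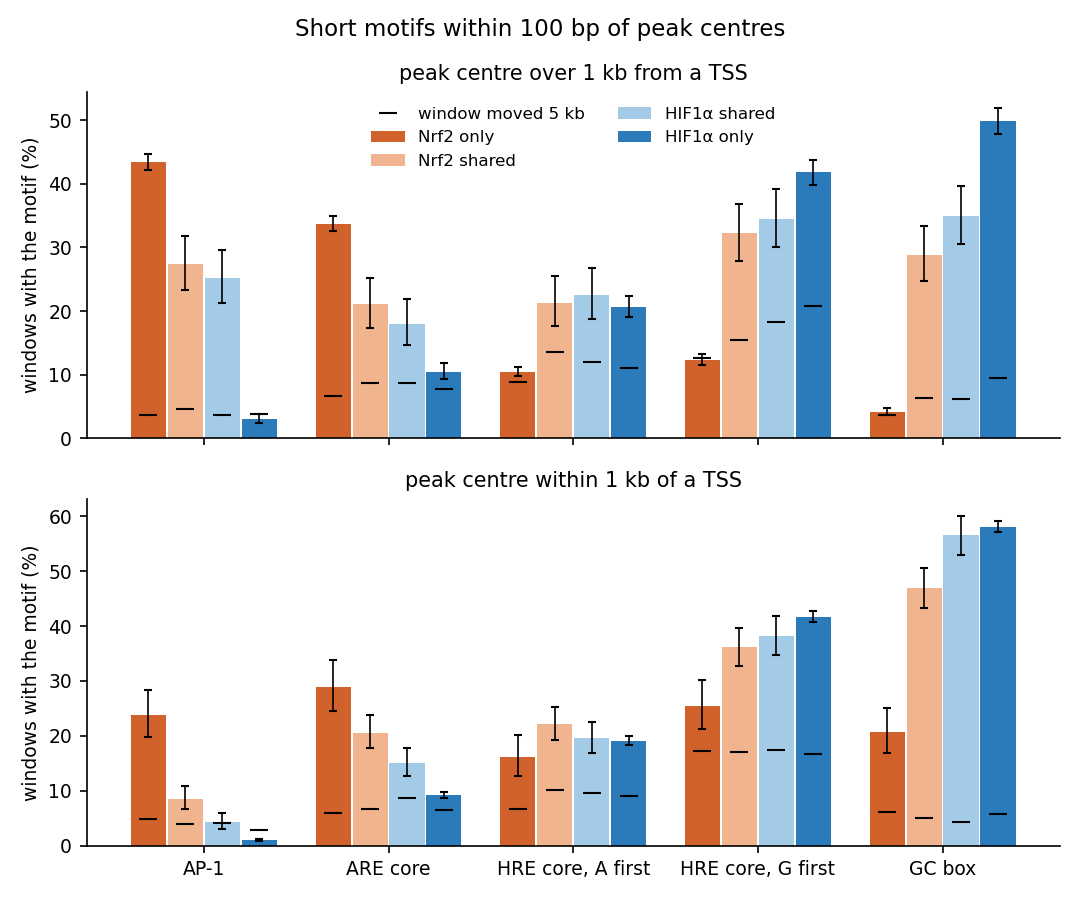
Share of windows of 100 bp on each side of the peak centre that hold the AP-1 site, the ARE core, either HRE core or the GC box (vertical axes, %), for peaks beyond 1 kb of a TSS (upper panel) and within 1 kb (lower panel); bars are coloured by factor and by sharing, error bars are 95% Wilson intervals and black marks are the windows moved by 5 kb. The AP-1 site goes down from 43.4% to 3.01% and the GC box up from 4.19% to 49.9% between distal Nrf2-only and distal HIF1α-only peaks.

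Within shared regions the AP-1 site lay closer to the Nrf2 centre. Of the regions with 1 peak of each factor, 309 held the site, and the nearest copy was closer to the Nrf2 centre in 201 (65.0%, 59.6 to 70.2%). Its median distance was 90 bp from the Nrf2 centre and 128 bp from the HIF1α centre. Near a TSS the medians were 102 and 186 bp, and the site was nearer to Nrf2 in 89 of 123 regions (72.4%). Beyond 1 kb they were 78.5 and 91.5 bp, and it was nearer in 112 of 186 (60.2%, 53.0 to 67.0%). A window with both the AP-1 site and ACGTG was uncommon in every class, at 6.05% of distal shared Nrf2 windows and 6.24% of distal shared HIF1α windows, against 4.62% of distal Nrf2-only and 0.543% of distal HIF1α-only windows.

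Most shared regions already held a peak in control cells. A HIF1α control peak lay in 703 of the 1107 shared regions (63.5%, 60.6 to 66.3%), and an Nrf2 control peak in 461 (41.6%, 38.8 to 44.6%). Both factors were present without iAs in 330 (29.8%), HIF1α alone in 373 (33.7%), Nrf2 alone in 131 (11.8%) and neither in 273 (24.7%). The largest of these groups was the regions with HIF1α alone in the control libraries.

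HIF1α-only regions held fewer HIF1α control peaks than shared regions did. Of the HIF1α-only regions, 9191 held no control peak of either factor (78.7%, 78.0 to 79.4%) and 2452 a HIF1α control peak alone (21.0%). A HIF1α control peak was 42.3 percentage points more frequent in shared than in HIF1α-only regions (39.3 to 45.2). Of the Nrf2-only regions, 3516 held no control peak (53.2%, 52.0 to 54.4%) and 2479 an Nrf2 control peak (37.5%), which was 4.12 points below the shared regions (1.02 to 7.27). That order turned when a control peak was counted only at centres at most 200 bp apart, where 34.8% of Nrf2-only and 33.9% of shared regions held one. A HIF1α control peak lay in 1137 Nrf2-only regions (17.2%, 16.3 to 18.1%), while an Nrf2 control peak lay in only 35 HIF1α-only regions (0.30%, 0.216 to 0.417%). The median widths of the shared, Nrf2-only and HIF1α-only regions were 629, 329 and 335 bp, and the part of width in these shares was not tested.

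**Figure D4:**
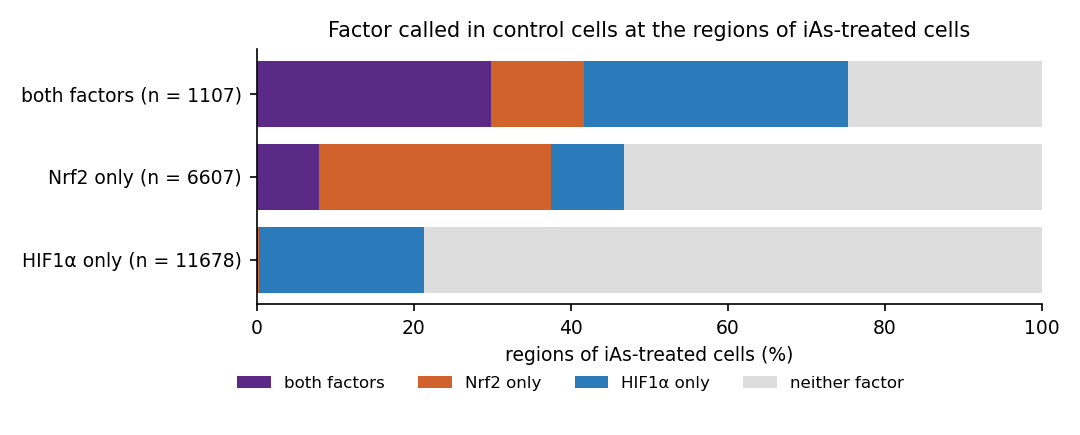
Share of the regions of iAs-treated cells (horizontal axis, %) that hold a control peak of both factors, Nrf2 only, HIF1α only or neither factor, for each class of region. No control peak is present in 24.7% of shared, 53.2% of Nrf2-only and 78.7% of HIF1α-only regions.

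Peaks were then joined to genes, counting a peak for every protein-coding gene whose body it touched or lay within 10 kb of. Of 20163 genes, 1368 had a shared region (6.78%), 1644 had peaks of both factors at separate regions only (8.15%), 942 had Nrf2 alone (4.67%), 8020 had HIF1α alone (39.8%) and 8189 had neither (40.6%). Genes with a shared region numbered 665 under the rule of at least 50% of both intervals, and 2554 when the distance was raised to 50 kb. Longer genes offer more room for a peak, and the median gene length was 32.1 kb for genes with a shared region, 87.7 kb for separate regions, 69.6 kb for Nrf2 alone, 26.5 kb for HIF1α alone and 18.8 kb for none. Of the 1644 genes with separate regions, 1607 had a TSS of a basic protein-coding transcript and were measured from it. In these, HIF1α lay within 1 kb of the gene's own TSS and Nrf2 beyond it in 1217 (75.7%, 73.6 to 77.8%), the reverse held in 39 (2.43%), neither factor lay within 1 kb in 214 (13.3%), and both did in 137 (8.53%). The nearest HIF1α peak was a median of 190 bp from the gene's own TSS, and the nearest Nrf2 peak 14530 bp.

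Known Nrf2 targets had a shared region more often than genes in general. Of 30 genes of the antioxidant and NADPH programme, 20 had one (66.7%, 48.8 to 80.8%), against 6.78% of all genes. They included the glutathione genes GCLC, GCLM and GSR and the thioredoxin genes TXNRD1, PRDX1 and SRXN1. Also included were PGD, TALDO1, TKT and ME1, enzymes of NADPH production or the pentose phosphate pathway, and the ferritin genes FTH1 and FTL. Further members were the haem oxygenase HMOX1, NQO1, CBR1, CBR3, ABCC3, OSGIN1 and SQSTM1. Both factors at separate regions were found at 3 (10%, against 8.15%), which were EPHX1, SLC48A1 and BLVRB. Nrf2 alone was found at 5 (16.7%, against 4.67%), HIF1α alone at UGDH (3.33%, against 39.8%) and no peak at AKR1C1. For comparison, 66.0% of all Nrf2 peaks within 1 kb of a TSS overlapped a HIF1α peak. An Nrf2 peak in any form was present at 28 of the 30 genes (93.3%, against 19.6% of all genes). A shared region needs such a peak, and the part of this in the contrast with 6.78% was not tested.

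The widest shared regions of this list were at TXNRD1, SQSTM1, NQO1 and ME1. At TXNRD1, chr12:104679565-104682920, an Nrf2 peak of 3356 bp covered HIF1α peaks of 251 and 305 bp, and the gene had 3 shared regions in all. At SQSTM1, chr5:179245617-179248812, an Nrf2 peak of 2447 bp and one of 479 bp met HIF1α peaks of 508, 421 and 1189 bp. At NQO1, chr16:69759701-69762155, an Nrf2 peak of 2455 bp enclosed a HIF1α peak of 196 bp, with the centres 521 bp apart. At ME1, chr6:84140252-84141931, an Nrf2 peak of 1680 bp enclosed a HIF1α peak of 229 bp, with the centres 421 bp apart. In each of these, a broad Nrf2 interval held narrow HIF1α intervals, SQSTM1 apart, where 1 HIF1α interval ran past the Nrf2 peak.

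That layout was frequent among the Nrf2 targets. Their 29 shared regions had a median width of 1005 bp, against 629 bp for all shared regions, and 25 of the 29 lay within 1 kb of a TSS. Some of these start sites belonged to neighbouring genes, with AKR1A1 for PRDX1, DNTTIP2 for GCLM and SETD4 for CBR1. In 25 of the 34 overlapping pairs at the Nrf2 targets the Nrf2 peak was the wider (73.5%, 56.9 to 85.4%), against 530 of all 1177 pairs (45.0%, 42.2 to 47.9%). The ARE core lay in the Nrf2 peak of 21 of these pairs, and in the stretch common to both peaks in 10 of the 21 (47.6%, 28.3 to 67.6%), against 300 of 451 over all pairs (66.5%, 62.0 to 70.7%). Both intervals overlap, so the data do not set the 2 shares apart. The 34 pairs came from 29 regions, and at TXNRD1, SQSTM1 and GCLM 1 broad Nrf2 peak entered several pairs. The intervals over pairs take them as independent, which they are not. Of the 29 regions, 17 held the ARE core, 11 the AP-1 site and 18 ACGTG somewhere in the interval. In control cells 10 of the 29 held both factors, 6 Nrf2 alone, 4 HIF1α alone and 9 neither.

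Nrf2 targets without HIF1α were led by ABCC2, SLC7A11, AKR1C3 and AKR1C2, in order of their widest peak. ABCC2 had 3 Nrf2-only regions of 1446, 1024 and 849 bp. SLC7A11, the cystine transporter that feeds glutathione synthesis, had 3 of 1190, 1072 and 199 bp, the widest of them 165 bp downstream of the TSS at chr4:139162744-139163933. AKR1C3 had 2 of 1103 and 352 bp, and AKR1C2 had 1 of 598 bp. AKR1C genes are close paralogs, so reads and peaks of that cluster cannot be given to 1 member with certainty.

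HIF1 targets had shared and separate regions more than all genes did, and HIF1α alone at a like share. Of 38 genes of glycolysis, glucose uptake and the hypoxia response, 12 had a shared region (31.6%, 19.1 to 47.5%, against 6.78% of all genes), 9 had both factors at separate regions (23.7%, against 8.15%), 15 had HIF1α alone (39.5%, against 39.8%) and 2, ALDOC and PFKFB4, had no peak. Nrf2 alone was found at 0 of the 38, with an interval of up to 9.18% that holds the 4.67% of all genes, and 21 of the 38 had an Nrf2 peak in any form (55.3%, 39.7 to 69.9%, against 19.6% of all genes). The 12 included ENO1, GAPDH, SLC2A1, ALDOA, ADM, SLC16A3, CA12, GPI, PFKFB3, BNIP3 and BHLHE40. Among them are the glucose transporter SLC2A1, the glycolytic enzymes GPI, ALDOA, GAPDH and ENO1, and the lactate exporter SLC16A3.

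The layout at the widest of these regions varied. At ENO1, chr1:8937731-8940649, a HIF1α peak of 1716 bp met 3 Nrf2 peaks of 669, 273 and 1239 bp. At GAPDH, chr12:6642513-6644976, a HIF1α peak of 2311 bp met 2 Nrf2 peaks of 563 and 1040 bp. At SLC2A1, chr1:43406621-43408349, in an intron 17054 bp from the canonical TSS, an Nrf2 peak of 1729 bp enclosed a HIF1α peak of 387 bp. At ALDOA, chr16:30076238-30077961, an Nrf2 peak of 1667 bp and a HIF1α peak of 1491 bp had 1434 bp in common. All 4 regions held peaks of both factors in control cells too.

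Sequence and position at the HIF1 targets are counts over few regions. Of the 13 shared regions at the 12 genes, 6 lay within 1 kb of a TSS, 10 held the AP-1 site, 9 the ARE core and 12 ACGTG. Over all shared regions the AP-1 site lay in 30.4% of the intervals, the ARE core in 44.6% and ACGTG in 49.1%, at a median width of 629 bp against 907 bp here. In control cells 7 of the 13 held both factors, 2 Nrf2 alone, 2 HIF1α alone and 2 neither.

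HIF1 targets with HIF1α alone were led by ANKRD37, BNIP3L, HK2 and VEGFA. ANKRD37 had a region of 1642 bp at chr4:186316881-186318522 with 5 copies of ACGTG. BNIP3L, a receptor for the removal of mitochondria, had one of 1376 bp with 10 copies. HK2 had one of 1310 bp at chr2:75061143-75062452 with 9 copies, and VEGFA, the main growth factor of blood vessels, one of 1264 bp at chr6:43738409-43739672 with 2 copies. None of these 4 regions held the AP-1 site. A HIF1α control peak was present at ANKRD37 and BNIP3L, and no control peak at HK2 and VEGFA. The study names HK2 among the genes regulated by both factors. No listed Nrf2 peak lay in it or within 10 kb. Peaks farther away were not counted for it, so this count does not decide that point.

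**Figure D5:**
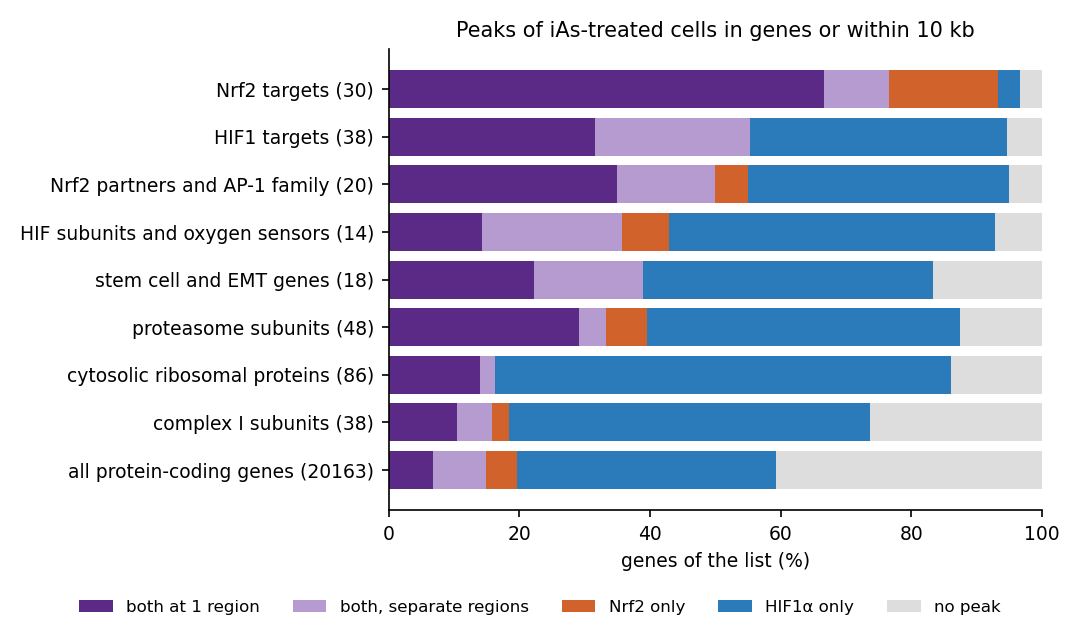
Share of the genes in each list (horizontal axis, %) with a shared region, peaks of both factors at separate regions, Nrf2 peaks only, HIF1α peaks only or no peak in the gene or within 10 kb, with the number of genes in parentheses and all protein-coding genes in the lowest bar. A shared region was present at 66.7% of Nrf2 targets, 31.6% of HIF1 targets and 6.78% of all genes.

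Several regulators of the Nrf2 pathway had a shared region too. Of 20 genes for Nrf2 partners, inhibitors and the AP-1 family, 7 had a shared region (35.0%, 18.1 to 56.7%, against 6.78%). These were NFE2L2, which encodes Nrf2, its inhibitor KEAP1, the small Maf genes MAFK and MAFG, the competitor BACH1 and the AP-1 genes FOSL1 and ATF3. At KEAP1, chr19:10612715-10614326, the Nrf2 peak of 1612 bp and the HIF1α peak of 1520 bp had their centres 43 bp apart. At NFE2L2, chr2:178128123-178129769, a HIF1α peak of 1571 bp met Nrf2 peaks of 1222 and 296 bp. The other wide regions were at MAFK, chr7:1576677-1578746, with 2070 bp, and at FOSL1, chr11:65666246-65668166, with 1921 bp.

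In these regulators the HIF1α peak was the wider one in most pairs, but the pairs were few and repeated some peaks. The Nrf2 peak was wider in 3 of their 10 pairs (30%, 10.8 to 60.3%), against 25 of 34 at the Nrf2 targets. These 3 were at MAFG, KEAP1 and BACH1. The 10 pairs came from 7 regions, and at ATF3, FOSL1 and NFE2L2 the same HIF1α peak was counted in each pair. The interval takes the pairs as independent, which they are not. Of the 7 regions, 5 held both factors in control cells, and 6 held the ARE core. Both factors at separate regions were found at NFE2L1, FOSB and BACH2 (15.0%, against 8.15%), and Nrf2 alone at BATF (5.00%, against 4.67%). HIF1α alone was found at 8 of the 20 (40.0%, against 39.8%), led by FOSL2 with 1620 bp, ATF4 with 1610 bp, JUN with 1241 bp and MAFF with 1141 bp, and CUL3 had no peak.

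Genes that control HIF1α were examined in the same way. Of 14 HIF subunits, oxygen sensors and cofactors, 2 had a shared region (14.3%, 4.01 to 39.9%, against 6.78%), 3 had separate regions (21.4%, against 8.15%), 7 had HIF1α alone (50%, against 39.8%), ARNT2 had Nrf2 alone and HIF3A had none. The shared ones were CITED2, which competes with HIF1α for its coactivator, with 1186 bp at chr6:139695508-139696693, and EGLN3, a prolyl hydroxylase, with 661 bp at chr14:34529204-34529864. The centres of the EGLN3 peaks were 43 bp apart, and those of the CITED2 peaks 361 bp. HIF1A itself, EGLN1 and VHL had HIF1α peaks and no Nrf2 peak in the gene or within 10 kb, and EGLN1 had the widest, 1494 bp. Peaks farther from a gene were not counted for it. The study reports a strong Nrf2 peak with iAs farther upstream of HIF1A, beyond the reach of that rule. The absence of a counted Nrf2 peak at HIF1A therefore does not bear on that site, and whether the list holds it was not tested.

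Stem cell and epithelial-mesenchymal transition genes had 4 shared regions in 18 genes (22.2%, 9.0 to 45.2%, against 6.78%). They were at MYC with 1195 bp, HES1 with 995 bp at chr3:193852224-193853218, CD44 with 371 bp at chr11:35188206-35188576 and KLF4 with 271 bp at chr9:110252345-110252615. Neither factor had a control peak at MYC and KLF4, and HIF1α had one at HES1 and CD44. Separate regions were found at SNAI1, TBC1D7 and EGFR (16.7%, against 8.15%), HIF1α alone at 8 genes (44.4%, against 39.8%) and no peak at NANOG, SNAI2 and ALDH1A1. Among the 8 genes with HIF1α alone, the widest regions were 627 bp at NAMPT and 502 bp at NOTCH1. The study reports Nrf2 as well as HIF1α at NAMPT, ZEB1, SOX2 and TCF19, with Nrf2 upstream of NAMPT and ZEB1. In the list used here no Nrf2 peak lay in these genes or within 10 kb. Peaks farther away were not counted, and the study shows browser tracks rather than listed peaks. This count therefore does not decide on its sites, and whether the list holds the upstream ones was not tested. Nrf2 alone was found at 0 of the 18 genes, with an interval of up to 17.6% that holds the 4.67% of all genes. Many genes of this list are named in the study, several of them for peaks in these same libraries. The shares of the list against all genes are therefore not independent of these data.

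Lists of housekeeping complexes, drawn by gene name (PSM, RPL and RPS, NDUF), were counted in the same way for comparison. They hold some genes that are not subunits of the complex, such as the assembly factor PSMG2 and, for complex I, NDUFA4. Both of these had a shared region. The proteasome list had a shared region at 14 of 48 genes (29.2%, 18.2 to 43.2%), all within 1 kb of a TSS. Shared regions so placed were found at 5.55% of all genes. The list of cytosolic ribosomal proteins had one at 12 of 86 (14.0%, 8.17 to 22.8%) and the complex I list at 4 of 38 (10.5%, 4.17 to 24.1%), against 6.78% of all genes. An Nrf2 peak in any form was present at 39.6% of proteasome, 16.3% of ribosomal and 18.4% of complex I genes, against 19.6% of all genes. The lists thus differed in Nrf2 itself. HIF1α alone was the most frequent state in all 3 lists, with 23 of 48 (47.9%, 34.5 to 61.7%), 60 of 86 (69.8%, 59.4 to 78.5%) and 21 of 38 (55.3%, 39.7 to 69.9%), against 39.8% of all genes. The Nrf2 targets stood above all 3 in the share of genes with a shared region, while the intervals of the HIF1 targets and of the proteasome overlapped almost fully.

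The widest shared regions brought in genes outside the lists. RXRA, the retinoid X receptor alpha, had a region of 3573 bp in an intron at chr9:137297416-137300988, with a HIF1α peak of 285 bp inside an Nrf2 peak of the full width. Others among the 10 widest were at TXNRD1, SQSTM1, C2CD2 with 3071 bp, ENO1, CEBPB with 2640 bp, HPCAL1 with 2541 bp, PLEC with 2516 bp and GAPDH. CEBPB, the transcription factor C/EBPβ, is the nearest gene to a region 102275 bp from its TSS. The RXRA region held an Nrf2 peak alone in control cells, and the others named here held both factors.

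The widest one-factor regions divided by position in the same way as the classes did. The 5 widest Nrf2-only regions were nearest to ASPH with 3569 bp, TBXAS1 with 2998 bp, DBNDD1 with 2876 bp, NTMT1 with 2808 bp and EPS8L3 with 2720 bp, and each was more than 5 kb from the nearest TSS. The 5 widest HIF1α-only regions were at SLC16A3 with 2215 bp, CTDSP1 with 1988 bp, TIAM1 with 1978 bp, PPARGC1B with 1971 bp and PKM with 1903 bp, and all but that of SLC16A3 lay within 1 kb of a TSS. All 5 Nrf2-only regions held the AP-1 site and none of the 5 HIF1α-only regions did. PKM, the pyruvate kinase of glycolysis, had its HIF1α region 386 bp from the canonical TSS at chr15:72522194-72524096, and 4 Nrf2-only regions nearby, of which the widest had 1112 bp and lay upstream at chr15:72529021-72530132.

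Some genes held several shared regions. One shared region was found at 1251 genes, 2 at 101 genes, 3 at 12 genes, 4 at 3 genes and 5 at 1 gene. The last was CUEDC1, at chr17:55938604-56032773, with 9 Nrf2 and 7 HIF1α peaks in the gene or within 10 kb. FRMD8, NEK6 and SEPTIN9 had 4, and TXNRD1, with 12 Nrf2 peaks and 4 HIF1α peaks, was among the 12 genes with 3. Neighbouring genes can share a region, so these counts are of genes and not of independent sites.

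Across chromosomes the share of Nrf2 peaks that met HIF1α was lowest on chromosome 4, at 2.73%, and highest on chromosomes 17 and 19, at 25.7% and 25.6%. The number of HIF1α peaks for each Nrf2 peak was lowest on chromosome 4 too, at 1.09, and highest on chromosome 19, at 4.06. HIF1α peaks were most dense on chromosome 19, at 12.1 per Mb. Other chromosomes departed from that order, with 13.6% shared on chromosome 16 at 6.24 HIF1α peaks per Mb and 21.7% on chromosome 21 at 3.37 per Mb. The number of genes differed as well, with 1480 protein-coding genes on chromosome 19 and 761 on chromosome 4.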

How the data were processed

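Peaks were called by the authors, who deposited them as intervals given by base positions on hg19, with a library name and no score. The submitters' processing notes name BWA and MACS2 2.1.0, and the study's methods state that tags were down-sampled to the smallest sample and that peaks were called with MACS or SICER. Which caller made each list is not given in the sources used here. The 21088 regions that the authors merged over libraries were left out.

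Intervals were read with Python 3.11.15, NumPy 2.4.6, pandas 2.3.3 and pysam 0.24.0. Overlapping intervals, by at least 1 bp, were joined to regions. Start sites were those of 63781 basic transcripts of 20163 protein-coding genes in GENCODE 44, lifted to GRCh37, and a promoter reached 3 kb upstream. A region's centre was assigned to a promoter first, then to exonic or intronic sequence, and otherwise to distal intergenic sequence. Motifs were counted on both strands of the 201 bp around each centre and 5 kb away. The steps were tested on simulated data.

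Named genes are those nearest to the 10 widest shared and the 5 widest regions of each factor alone, the 10 genes with the most shared regions (with ties, of which only some are named), and list members: all with a shared region, at most 4 per list with positions, and at most 4 with 1 factor only, by width. Members named beyond that (both factors at separate regions, or no peak) were chosen after their values were seen. A few genes that this rule selects are not reported here. The members and lists were chosen with earlier results of these data known. With 1 library for each antibody and condition, no test was made, and the alternatives of overlap, width, start site and window are given in the closing section.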

Additional observations from a re-analysis of the deposited data

How the results depend on the processing

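No paired analysis was possible because each antibody and condition had 1 library, and no replicate could be left out. Of 177 alternative values, 40 stayed within the counting error or within 1.5 times the count and 137 moved, and the cause was not tested beyond what each setting does by construction. The shares of Nrf2 and of HIF1α peaks that overlapped were 6.66% and 4.02% with a reciprocal overlap of at least 50%, 10.8% and 6.54% with centres at most 200 bp apart, 18.4% and 12.1% with a gap of up to 1 kb, 10.8% and 10.5% with equal numbers of the widest intervals, and 9.61% and 5.77% with the wider 50% of each list. Regions with both factors numbered 516 with the reciprocal overlap and 364 with the wider 50%, which left 3499 with Nrf2 only and 6043 with HIF1α only, and equal numbers left 6928 with HIF1α only. Near a TSS, within 1 kb, lay 58.3%, 4.0% and 73.9% of shared, Nrf2-only and HIF1α-only regions with 1 canonical transcript per gene, and 73.0%, 7.14% and 84.2% with equal numbers. Within 500 bp lay 55.5%, 4.06% and 68.4%, and with the reciprocal overlap 10.7% of Nrf2-only and 78.8% of HIF1α-only regions lay within 1 kb. Median widths of shared Nrf2 and HIF1α peaks were 397 and 390.5 bp with the reciprocal overlap and 339 and 538 bp with equal numbers, which gave 460 bp for HIF1α-only peaks. With the reciprocal overlap the order of these medians turned, by less than their counting error. TGACTCA lay in 8.54%, 27.2%, 6.45% and 0.754% of shared Nrf2, Nrf2-only, shared HIF1α and HIF1α-only windows of 50 bp on each side, and in 27.5%, 55.6%, 21.0% and 2.75% of whole intervals. All 88 values of the other motifs moved with the window too. The median distance between centres was 102 bp for pairs of single peaks and 69 bp where both peaks were at most 500 bp wide. Genes with a shared region numbered 2554 within 50 kb and 665 with the reciprocal overlap, and genes with separate regions 3405 within 50 kb. With control peaks counted only at centres at most 200 bp apart, 33.9% and 51.1% of shared regions held an Nrf2 and a HIF1α control peak, and 34.8% of Nrf2-only and 17.6% of HIF1α-only regions a control peak of their own factor, so that Nrf2-only regions then stood above shared ones for Nrf2. The depth of the libraries is unknown, and its part in these counts was not tested.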

Other observations

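One Nrf2-only region stood apart in its sequence and was chosen for description after its values were seen. It lies at chr16:90060550-90063425, 13425 bp downstream of the nearest TSS of DBNDD1 and in an exon of the transcribed pseudogene AFG3L1P, and the same place held an Nrf2 peak in control cells. It holds 39 copies of TGACTCAGC, all on the plus strand, within 1329 bp, with steps of 14 to 112 bp and a median step of 27 bp. The next highest number in any Nrf2 peak of iAs-treated cells was 7, and the median was 0. A stretch of 150 bp at chr16:90061926-90062075 on the plus strand, with its 6 copies in capitals, shows how they are spaced.
DBNDD1: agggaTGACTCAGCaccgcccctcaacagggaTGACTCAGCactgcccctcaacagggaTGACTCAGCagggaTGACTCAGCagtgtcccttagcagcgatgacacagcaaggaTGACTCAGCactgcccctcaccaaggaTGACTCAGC
Reads from a tandem repeat may map to more than 1 copy, and the part of mapping in this peak was not tested.

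Words of 7 letters were also counted without reference to a known motif, as a description chosen after the data were seen. In distal windows the leading word by its excess over the windows moved by 5 kb was TGACTCA for Nrf2-only, shared Nrf2 and shared HIF1α peaks alike. For HIF1α-only peaks it was CCCCGCC, in 27.1% of windows against 5.10% of the moved ones. The shared peaks of both factors held that word as well, in 17.9% of the Nrf2 and 22.3% of the HIF1α windows.

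Nrf2-only regions with a control peak of HIF1α alone numbered 612 (9.26%, 8.59 to 9.99%), of which 584 were more than 1 kb from a TSS. HIF1α-only regions with a control peak of Nrf2 alone numbered 8 of 11678.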
